A study of Mus musculus with 24 samples.

Results

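The HOX genes are the homeobox transcription factors of the 4 mammalian HOX clusters. All 39 genes with a symbol of the form Hoxa, Hoxb, Hoxc or Hoxd and a paralog number were taken, 11 from the HoxA cluster, 10 from HoxB, 9 from HoxC and 9 from HoxD, out of 55471 genes in the batch 1 table and 13915 in the shorter batch 2 table. The batch 2 table listed 20 of the 39 genes (3, 5, 6 and 6 in HoxA to HoxD), and the 19 it did not list were counted as not detected there. In the 12 libraries of batch 1, 6 of those 19 genes had no read and the other 13 had at most 7 counts in a library. A mean of 1 TPM was reached in at least 1 group by 15 HOX genes and in all 6 groups by 14. TPM is the transcript abundance unit that scales counts for gene length and library size. The series' design text treats values under 1 TPM as noise.

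The cells were derivatives of EO771 (labelled E0771), a mouse mammary carcinoma line from a spontaneous tumour of C57BL/6 mice, and polyadenylated RNA was sequenced in 24 libraries. X2 cells carried the empty PLNCX2 retroviral vector with a tdTomato reporter. CCR7 cells carried the same vector with mouse Ccr7 cDNA and were PDPN-negative, CCR7-PDPN cells were those sorted for spontaneously high podoplanin (PDPN) after the same transduction, and X2-PDPN cells were X2 cells sorted for high PDPN. In batch 1 the derivatives X2, CCR7 and CCR7-PDPN had 4 libraries each. Batch 2 covered X2, CCR7-PDPN and X2-PDPN, again with 4 libraries for each derivative. The labels name 4 technical replicates of each derivative, and the study's methods say that clones were not selected, although the series' design text calls the derivatives subclones. Differences between derivatives may therefore be those between 1 population or 1 clone of each, and p-values measure the spread between libraries of 1 cell population and not between independently made populations. Totals ran from 22275468 to 33395418 counts per library in batch 1 and from 22788542 to 35721027 in batch 2, so that a count of 0 allows up to 3 counts. CCR7 replicate 1 stood apart from the other CCR7 libraries. The chi-square statistic of a pair of replicates over all genes, divided by its degrees of freedom, was 13.5 to 22.5 for the pairs with this library. It was at most 8.48 for any other pair. For the HOX genes described, results that pass or lose the adjusted p without this library are named. The other gene lists are given with all libraries only.

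The labels held for the 2 genes that define the groups. Mean Ccr7 levels were 0.653 TPM (X2, batch 1), 0.644 (X2, batch 2) and 1.25 (X2-PDPN), against 5311 (CCR7) and 5645 and 5911 (CCR7-PDPN, batch 1 and 2). Pdpn had means of 0.128 and 0.330 TPM in X2 and 0.853 in CCR7, while the PDPN-sorted groups had 51.9 (CCR7-PDPN, batch 1), 49.9 (CCR7-PDPN, batch 2) and 52.9 (X2-PDPN). Of 10 mammary epithelial markers, Krt8 alone reached 1 TPM, with group means from 425 TPM (X2 of batch 2) to 560.0 TPM (CCR7-PDPN of batch 1). Krt5, Krt14, Krt18, Epcam, Cdh1, Pgr, Elf5, Gata3 and Esr1 had group means under 1 TPM, and all of these but Esr1 were missing from the batch 2 table. Of 10 markers of other cell types, the mesenchymal gene Vim (1848 to 2340 TPM) and Pdgfrb (38.0 to 55.8 TPM) were above 1 TPM. Pdgfrb was listed with Dcn and Lum for fibroblasts and pericytes, and Dcn and Lum were at or near 0. So were the leukocyte genes Ptprc, Cd3e and Adgre1 and the adipocyte gene Adipoq. Esr1 had mean levels of 0.570 TPM (X2), 0.329 (CCR7) and 0.0399 (CCR7-PDPN) in batch 1 and of 0.665 (X2), 0.283 (X2-PDPN) and 0.0504 (CCR7-PDPN) in batch 2, and each of the 6 comparisons found it lower in the derivative named first. The endothelial genes Pecam1 and Cdh5 stayed under 0.5 TPM, and in X2-PDPN against X2 Pecam1 rose by 1.15 and Cdh5 fell by 1.48 on the log2 scale, from 25 to 59 and from 30 to 11 counts over 4 libraries. The part of these low genes in the HOX results was not tested.

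HOX proteins bind DNA through a homeodomain, mostly together with TALE cofactors of the PBX and MEIS families, and specify position along the body axis. Genes of 1 cluster lie in the order of their paralog numbers, with low numbers used towards the head and high numbers towards the tail, and each number marks a group of related genes in the different clusters. Adult epithelia and tumours keep a HOX pattern that depends on where the tissue comes from. Polycomb complexes hold silent HOX genes in closed chromatin, MLL-type methyltransferases keep active ones open, and retinoic acid switches on the low-numbered end. In the mammary gland, the group 9 genes of HoxA, HoxB and HoxD are together needed for its growth in pregnancy.

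Of the 39 genes, 22 had at least 1 promoter window in the RefSeq table of GRCm38.p6, which holds 250 bases before to 50 bases after each start. The sequences of 4 neighbours in HoxD are shown because the most highly expressed HOX genes, Hoxd8, Hoxd9 and Hoxd10, end there at a nearly silent neighbour, Hoxd11. They are written 5′ to 3′, and capitals mark 3 promoter motifs searched on both strands. The TATA box was searched as TATAAA. The CCAAT box was searched by its own letters. The GC box was searched as GGGCGG.
Hoxd11, chr2:74679308-74679607, plus strand: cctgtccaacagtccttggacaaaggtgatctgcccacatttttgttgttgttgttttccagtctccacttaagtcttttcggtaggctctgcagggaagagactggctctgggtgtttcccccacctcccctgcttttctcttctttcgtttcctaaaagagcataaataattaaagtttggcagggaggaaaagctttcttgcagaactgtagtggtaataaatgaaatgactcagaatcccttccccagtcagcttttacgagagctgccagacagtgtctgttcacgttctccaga
Hoxd10, chr2:74691641-74691940, plus strand: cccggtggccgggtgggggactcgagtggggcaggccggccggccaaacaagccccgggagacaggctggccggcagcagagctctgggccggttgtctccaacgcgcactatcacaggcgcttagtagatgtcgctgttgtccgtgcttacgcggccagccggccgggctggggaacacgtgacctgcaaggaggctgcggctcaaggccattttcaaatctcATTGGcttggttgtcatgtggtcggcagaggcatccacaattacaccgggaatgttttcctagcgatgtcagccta
Hoxd9, chr2:74697513-74697812, plus strand: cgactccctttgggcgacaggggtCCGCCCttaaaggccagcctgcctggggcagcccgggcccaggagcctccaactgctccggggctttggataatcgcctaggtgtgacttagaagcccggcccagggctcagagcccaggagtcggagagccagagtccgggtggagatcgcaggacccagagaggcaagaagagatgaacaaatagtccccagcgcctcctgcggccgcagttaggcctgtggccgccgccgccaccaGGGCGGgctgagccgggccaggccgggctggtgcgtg
Hoxd8, chr2:74704365-74704664, plus strand: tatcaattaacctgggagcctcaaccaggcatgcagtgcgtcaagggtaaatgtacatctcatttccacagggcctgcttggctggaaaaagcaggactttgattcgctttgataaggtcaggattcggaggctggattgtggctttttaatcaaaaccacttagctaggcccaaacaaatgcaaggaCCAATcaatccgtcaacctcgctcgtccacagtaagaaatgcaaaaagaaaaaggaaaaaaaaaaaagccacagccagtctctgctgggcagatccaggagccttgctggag
The Hoxd10 window held 1 CCAAT box and 22 CpG dinucleotides, the Hoxd9 window 2 GC boxes and 20 CpG, the Hoxd8 window 1 CCAAT box and 6 CpG, and the Hoxd11 window none of these motifs and 4 CpG. A further Hoxd11 window, 74682073 to 74682372 on chromosome 2, held 1 GC box and 25 CpG. Of all promoter windows of this length, 13.6% held the TATA box letters, 37.4% the CCAAT box and 35.7% the GC box, and the counts over the 24 HOX windows were 4, 15 and 10. The median CpG number was 14.5 in the HOX windows and 7 in all windows. It was 12 over the 7 windows of HOX genes that reached 1 TPM and 15 over the 17 windows of the others, with ranges of 4 to 22 and 4 to 45 that overlapped.

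EO771 cells had a sharply bounded HOX pattern, and the boundaries were at the same genes in every group of batch 1. In batch 2 most of the silent genes were not listed and were counted as not detected. In HoxD, Hoxd8, Hoxd9 and Hoxd10 were high while Hoxd11, Hoxd12, Hoxd13 and Hoxd1 were below 1 TPM. In HoxC every gene from Hoxc4 to Hoxc10 was above or near 1 TPM, while Hoxc11, Hoxc12 and Hoxc13 together had 5 counts over the 12 libraries of batch 1. In HoxA, Hoxa10 was the single gene above 1 TPM, and in HoxB the expressed genes were Hoxb3, Hoxb5, Hoxb6 and, far from them, Hoxb13. Each of these patterns holds for batch 2 as far as the listed genes go.

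**Figure D1:**
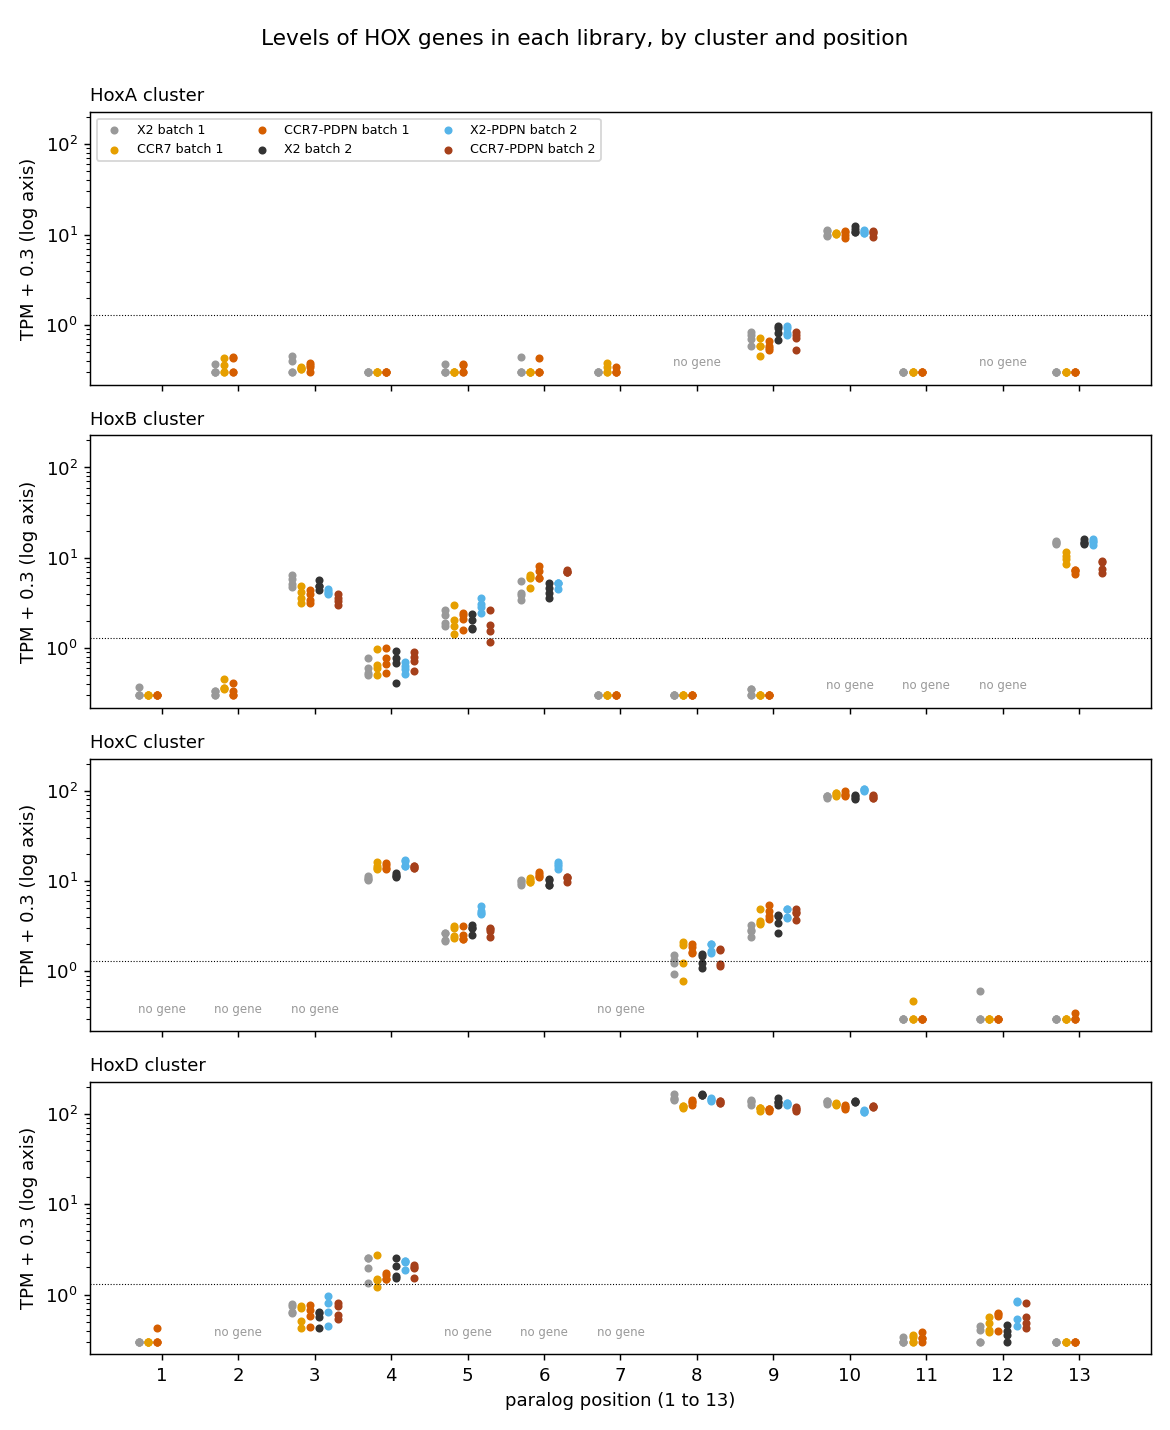
TPM + 0.3 (log axis) of the HOX genes reported here in every library against paralog position, 1 panel per cluster, coloured by group; genes missing from the batch 2 table have batch 1 points only, and the dotted line marks 1 TPM. Hoxd8, Hoxd9 and Hoxd10 are the highest points and Hoxd11 next to them is close to 0 in every batch 1 library.

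The edges between expressed and silent neighbours were sharp. Hoxd10 (ENSMUSG00000050368, chromosome 2, 74691924 to 74695105, plus strand) had 21838 counts over the 12 libraries of batch 1, and Hoxd11, whose nearest end lies 4907 bases away, had 9, with 0 to 3 in a library. Hoxc10 (ENSMUSG00000022484, chromosome 15, 102966796 to 102971893, plus strand) had 16152 counts and Hoxc11, 9087 bases away, had 2. Hoxa10 (ENSMUSG00000000938, chromosome 6, 52231197 to 52240854, minus strand) had 3079 counts, and its neighbour Hoxa11, 1251 bases away, had 0, as did Hoxa13. Hoxb13 (ENSMUSG00000049604, chromosome 11, 96194316 to 96197447, plus strand), a posterior gene of the hindgut and prostate, had 2122 counts although Hoxb9, the next gene of the cluster at a distance of 74009 bases, had 2 and Hoxb7 and Hoxb8 had 0. On the other side of the HoxD block, Hoxd8 had 34849 counts and Hoxd4 418. The edges of HoxA, HoxC and HoxD therefore lay on the same side of group 10, and HoxB, which has no gene of groups 10, 11 and 12, was expressed at group 13.

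HoxD made up most of the HOX transcript pool. Summed over a cluster, X2 of batch 1 had 423 ± 15.8 TPM (SD, n = 4) from HoxD, 112 ± 1.51 from HoxC, 25.8 ± 1.39 from HoxB and 11.2 ± 0.644 from HoxA. The HoxD share of the HOX sum was 73.99% and 74.5% (X2, batch 1 and 2), 70.2% (CCR7), 70.2% and 71.3% (CCR7-PDPN, batch 1 and 2) and 67.9% (X2-PDPN). All 39 genes together came to 572, 522 and 523 TPM (X2, CCR7 and CCR7-PDPN of batch 1). The 20 genes listed in batch 2 came to 588, 564 and 519 TPM there (X2, X2-PDPN and CCR7-PDPN).

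In X2 of batch 1, Hoxd8 had the highest mean level per length, at 150.3 ± 9.62 TPM, and its lowest library was above the highest of the next gene, Hoxd9. Hoxd9 and Hoxd10 overlapped in level, Hoxc10 (86.2 ± 1.70) stood below both, and Hoxb13 (14.5 ± 0.517) came next, below Hoxc10 in every library. Hoxc4, Hoxa10 and Hoxc6 formed a group of overlapping levels between 9 and 11 TPM on average, each below Hoxb13. Hoxb3 (5.23 ± 0.730) and Hoxb6 (3.91 ± 0.915) overlapped each other. Hoxc9, Hoxc5, Hoxb5, Hoxd4 and Hoxc8 followed from 2.55 down to 0.961 TPM, and no neighbours in that part of the order were separated. Among all genes of the table Hoxd8 ranked 1272nd by mean TPM, Hoxc10 2539th and Hoxb13 8114th, with 12756 genes at 1 TPM or more. In X2-PDPN Hoxd10 and Hoxc10 overlapped, and in CCR7 Hoxd10 (129 TPM) stood above Hoxd8 (120.5 TPM).

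By library, the genes above 1 TPM are described cluster by cluster, from the head side to the tail side. In HoxA, Hoxa10, known for patterning the uterus, was nearly constant. Hoxa10 had 10.8, 10.7, 9.64 and 9.46 TPM in the 4 X2 libraries of batch 1, 9.88, 10.04, 9.85 and 10.2 in CCR7 and 10.4, 10.7, 8.91 and 9.58 in CCR7-PDPN. In batch 2, Hoxa10 had 12.2, 11.3, 10.4 and 10.2 TPM in X2, 10.97, 10.7, 10.1 and 10.2 in X2-PDPN and 10.7, 10.1, 9.06 and 10.4 in CCR7-PDPN. All groups of a batch overlapped in Hoxa10.

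In HoxB, Hoxb3 and Hoxb6 moved in opposite directions. Hoxb3 had 4.44, 4.87, 5.49 and 6.11 TPM in the 4 X2 libraries of batch 1, 2.88, 3.32, 3.84 and 4.57 in CCR7 and 3.08, 2.90, 4.10 and 3.71 in CCR7-PDPN. In batch 2, Hoxb3 had 4.56, 4.55, 4.05 and 5.34 TPM in X2, 3.63, 4.04, 4.20 and 3.80 in X2-PDPN and 3.67, 2.68, 3.01 and 3.29 in CCR7-PDPN. In both batches the CCR7-PDPN libraries lay below all X2 libraries, and the CCR7 and X2-PDPN libraries overlapped X2. Hoxb5 had 1.59, 2.35, 2.00 and 1.46 TPM in the 4 X2 libraries of batch 1, 2.73, 1.46, 1.13 and 1.77 in CCR7 and 1.30, 2.04, 2.15 and 1.81 in CCR7-PDPN. In batch 2, Hoxb5 had 1.33, 1.76, 2.07 and 1.37 TPM in X2, 2.57, 2.75, 3.25 and 2.18 in X2-PDPN and 0.875, 1.49, 1.27 and 2.37 in CCR7-PDPN. Hoxb5, the neighbour of Hoxb6 on the head side, was higher in all 4 X2-PDPN libraries than in any X2 library of batch 2, and the other groups overlapped. Hoxb6 had 3.58, 5.23, 3.74 and 3.11 TPM in the 4 X2 libraries of batch 1, 5.82, 6.13, 5.62 and 4.33 in CCR7 and 5.65, 6.87, 5.63 and 7.91 in CCR7-PDPN. In batch 2, Hoxb6 had 3.29, 3.77, 5.01 and 4.31 TPM in X2, 4.96, 4.26, 4.93 and 4.99 in X2-PDPN and 6.62, 6.59, 7.00 and 6.65 in CCR7-PDPN. All CCR7-PDPN libraries were above all X2 libraries of their batch, and the CCR7 and X2-PDPN libraries each overlapped X2.

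Hoxb13 gave the widest separation. Hoxb13 had 14.6, 14.5, 15.04 and 13.8 TPM in the 4 X2 libraries of batch 1, 8.27, 10.1, 9.34 and 11.3 in CCR7 and 7.05, 7.03, 6.31 and 6.76 in CCR7-PDPN. In batch 2, Hoxb13 had 15.7, 14.3, 14.04 and 14.7 TPM in X2, 15.99, 14.7, 13.7 and 14.9 in X2-PDPN and 8.62, 6.51, 7.30 and 9.03 in CCR7-PDPN. The 3 groups of batch 1 did not overlap, with X2 highest and CCR7-PDPN lowest, and in batch 2 X2 and X2-PDPN overlapped while CCR7-PDPN lay below both. In means, Hoxb13 had 14.5 ± 0.517, 9.76 ± 1.29 and 6.79 ± 0.344 TPM (SD, n = 4) in X2, CCR7 and CCR7-PDPN of batch 1.

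**Figure D2:**
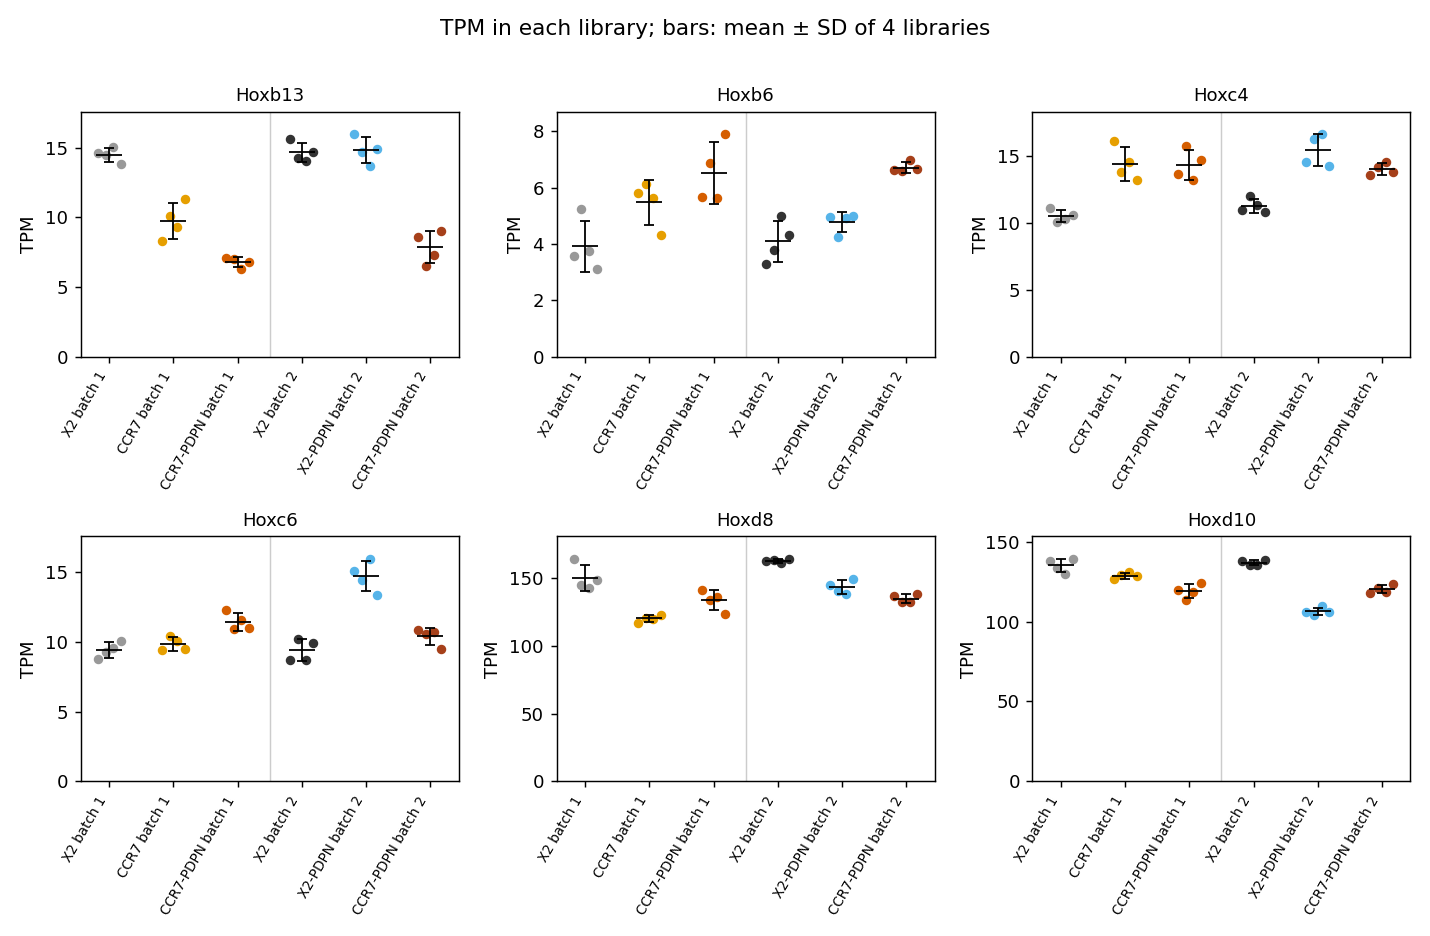
TPM of 6 HOX genes in every library, with mean ± SD of the 4 libraries of a group; the grey line parts batch 1 from batch 2. Hoxb13 lies at 13.7 TPM or more in all X2 and X2-PDPN libraries and at 11.3 or less in all libraries with Ccr7, and Hoxc6 is highest in X2-PDPN.

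In HoxC, Hoxc4 and Hoxc6 were the genes of middle level. Hoxc4 had 11.1, 10.1, 10.2 and 10.6 TPM in the 4 X2 libraries of batch 1, 16.1, 13.8, 14.5 and 13.2 in CCR7 and 13.7, 15.7, 13.2 and 14.7 in CCR7-PDPN. In batch 2, Hoxc4 had 10.9, 11.96, 11.3 and 10.8 TPM in X2, 14.6, 16.2, 16.6 and 14.2 in X2-PDPN and 13.5, 14.2, 14.6 and 13.8 in CCR7-PDPN. Every CCR7, CCR7-PDPN and X2-PDPN library was above every X2 library of its batch. Hoxc5 had 1.94, 2.37, 2.38 and 1.90 TPM in the 4 X2 libraries of batch 1, 2.69, 2.16, 2.04 and 2.87 in CCR7 and 2.23, 1.96, 2.86 and 1.96 in CCR7-PDPN. In batch 2, Hoxc5 had 2.23, 2.74, 2.94 and 2.70 TPM in X2, 4.31, 3.98, 4.95 and 4.15 in X2-PDPN and 2.73, 2.08, 2.51 and 2.66 in CCR7-PDPN. For Hoxc5 the X2-PDPN libraries stood above all others of batch 2, and the other groups overlapped. Hoxc6 had 8.76, 9.30, 9.59 and 10.1 TPM in the 4 X2 libraries of batch 1, 9.44, 10.4, 10.1 and 9.47 in CCR7 and 12.3, 10.9, 11.6 and 11.01 in CCR7-PDPN. In batch 2, Hoxc6 had 8.74, 10.2, 8.73 and 9.94 TPM in X2, 15.1, 14.4, 15.98 and 13.4 in X2-PDPN and 10.9, 10.6, 10.7 and 9.51 in CCR7-PDPN. X2-PDPN was the highest group for Hoxc6 with no overlap in batch 2, and CCR7-PDPN was above CCR7 and X2 in batch 1.

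The lower genes of HoxC, which help to pattern the thoracic region, were noisier. Hoxc8 had 0.643, 1.04, 1.21 and 0.944 TPM in the 4 X2 libraries of batch 1, 1.79, 1.66, 0.954 and 0.481 in CCR7 and 1.28, 1.34, 1.56 and 1.70 in CCR7-PDPN. In batch 2, Hoxc8 had 0.923, 1.26, 1.17 and 0.780 TPM in X2, 1.39, 1.31, 1.71 and 1.71 in X2-PDPN and 0.918, 1.47, 1.41 and 0.856 in CCR7-PDPN. Hoxc8 stayed near 1 TPM, and its CCR7 libraries spanned the range of all other groups of batch 1. Hoxc9 had 3.00, 2.11, 2.58 and 2.52 TPM in the 4 X2 libraries of batch 1, 4.56, 3.07, 3.15 and 3.29 in CCR7 and 3.46, 5.07, 4.39 and 3.75 in CCR7-PDPN. In batch 2, Hoxc9 had 3.85, 3.92, 3.14 and 2.38 TPM in X2, 4.62, 3.70, 4.62 and 3.63 in X2-PDPN and 4.61, 4.25, 4.16 and 3.44 in CCR7-PDPN. All CCR7 and CCR7-PDPN libraries of batch 1 were above X2, and in batch 2 the groups overlapped. Hoxc10 had 87.3, 86.8, 83.7 and 86.98 TPM in the 4 X2 libraries of batch 1, 87.7, 90.2, 93.5 and 94.01 in CCR7 and 89.4, 86.5, 91.7 and 99.98 in CCR7-PDPN. In batch 2, Hoxc10 had 80.6, 82.9, 87.1 and 89.3 TPM in X2, 102, 99.6, 105 and 104 in X2-PDPN and 89.5, 86.4, 82.8 and 83.7 in CCR7-PDPN. Hoxc10, a gene of the lumbar region and the last expressed gene of HoxC, was higher in all X2-PDPN libraries than in any other library of batch 2.

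In HoxD, Hoxd4 lies apart from the high block. Hoxd4 had 2.25, 2.27, 1.69 and 1.04 TPM in the 4 X2 libraries of batch 1, 2.43, 1.20, 0.917 and 1.16 in CCR7 and 1.19, 1.21, 1.37 and 1.42 in CCR7-PDPN. In batch 2, Hoxd4 had 1.31, 2.25, 1.21 and 1.79 TPM in X2, 1.59, 2.04, 2.03 and 2.01 in X2-PDPN and 1.82, 1.65, 1.71 and 1.23 in CCR7-PDPN. The groups overlapped, and CCR7 held both the lowest and the highest library of batch 1. Hoxd8 had 164, 145, 143 and 149 TPM in the 4 X2 libraries of batch 1, 117, 121, 120.1 and 123 in CCR7 and 142, 134, 136 and 124 in CCR7-PDPN. In batch 2, Hoxd8 had 163, 163, 161 and 165 TPM in X2, 145, 141, 138 and 149.8 in X2-PDPN and 137, 132, 132 and 139 in CCR7-PDPN. The X2 libraries of each batch were above all others, and CCR7 was the lowest group of batch 1.

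Hoxd9 and Hoxd10, which also act in limb development, were both lower in CCR7-PDPN than in X2, and Hoxd9 was also lower in CCR7 and Hoxd10 in X2-PDPN. Hoxd9 had 136, 126, 137 and 142 TPM in the 4 X2 libraries of batch 1, 117, 108, 117 and 117 in CCR7 and 112, 108, 112 and 114 in CCR7-PDPN. In batch 2, Hoxd9 had 134, 136, 125 and 149 TPM in X2, 125, 132, 132 and 128 in X2-PDPN and 118, 106, 112 and 112 in CCR7-PDPN. Every Ccr7-transduced library was below every X2 library of its batch. Hoxd10 had 138, 134, 130.1 and 139.5 TPM in the 4 X2 libraries of batch 1, 127, 129, 131 and 129 in CCR7 and 119.8, 114, 119 and 124 in CCR7-PDPN. In batch 2, Hoxd10 had 138, 135, 136 and 138 TPM in X2, 106, 104, 109.8 and 106 in X2-PDPN and 118, 121, 119 and 124 in CCR7-PDPN. X2-PDPN was the lowest group for Hoxd10 with no overlap, CCR7-PDPN came between, and CCR7 overlapped X2. Summed over the cluster, HoxD came to 423 and 438 TPM in X2 of batch 1 and 2 and to 366 (CCR7), 367 and 370.0 (CCR7-PDPN) and 382 (X2-PDPN), with every derivative's libraries below those of X2 of its batch. HoxC came to 112 and 113 TPM in X2 and to 123 (CCR7), 126 and 118 (CCR7-PDPN) and 143 (X2-PDPN).

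Below 1 TPM, Hoxa9, Hoxb4, Hoxd3 and Hoxd12 were also in the batch 2 table. Their group means lay between 0.0634 and 0.566 TPM. Some HOX genes share exons, which matters for their levels. Of the exonic length of Hoxd3 and Hoxd4, 37.7% and 47.7% is not shared with another gene on the same strand (each other and the read-through gene Gm28230), and 47.1% of Hoxb3 is free of genes on either strand because Hoxb3os lies across it. Whether the counting used strand is not given in the sources used here.

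Each derivative was compared with its partners inside its own batch, which asks what Ccr7 transduction, the PDPN sort and both together go with. The 3 comparisons of a batch share libraries. A gene passed both thresholds with an adjusted p under 0.05 (quasi-likelihood F test of edgeR, Benjamini-Hochberg adjusted over 13261 genes in batch 1 or 13314 in batch 2) and an absolute log2 fold change above 1. In each of these comparisons 18 of the 39 HOX genes passed the filter on low counts, and the others were not tested. Across the 6 comparisons 1 HOX result passed both thresholds, that of Hoxb13 in CCR7-PDPN against X2 of batch 1. Of 120 tests of the 15 genes above 1 TPM, the 2 tests across batches included, 53 had an adjusted p under 0.05. Over all genes, 40.8% to 64.8% passed the adjusted p in the comparisons and the difference of differences given next and 0.0% in the test between the batches, and nothing particular to the HOX genes is read from their count.

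**Figure D3:**
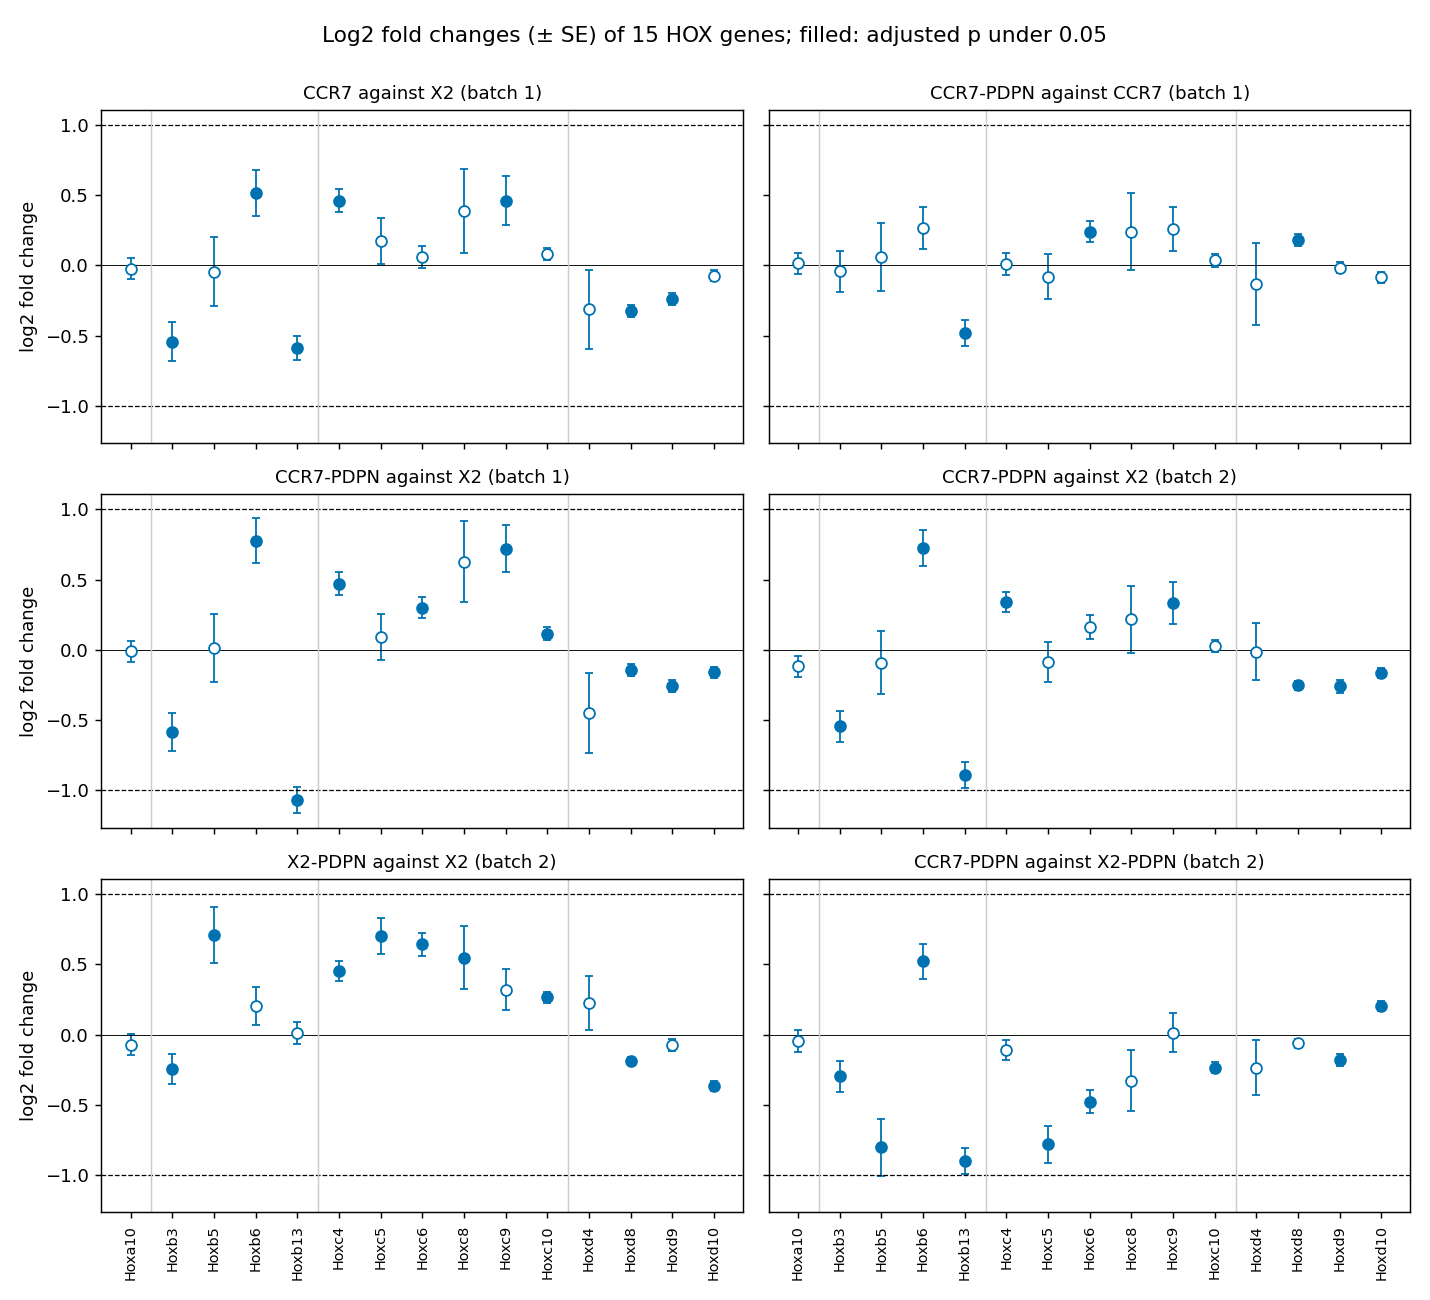
Log2 fold change (± SE) of the 15 HOX genes that reach 1 TPM in the 6 comparisons within a batch, from edgeR; filled points have an adjusted p under 0.05 and dashed lines mark a log2 fold change of 1. Hoxb13 is below -1 in CCR7-PDPN against X2 of batch 1 and near 0 in X2-PDPN against X2.

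Ccr7-transduced cells without PDPN had less Hoxb13, Hoxb3, Hoxd8 and Hoxd9 and more Hoxc4, Hoxc9 and Hoxb6 than X2. Over all genes, 6.48% passed both thresholds in this comparison, 24% were higher and 25.2% lower by the adjusted p with no fold threshold. Among the 18 HOX genes tested, 0 passed both by edgeR and 0 by DESeq2 (8 had an unadjusted p under 0.05), and 4 were higher and 4 lower at the adjusted p alone. The median log2 fold change was -0.04 for the HOX genes and 0.00 for all genes. Hoxb13 fell by 0.59 on the log2 scale (SE 0.09, adjusted p = 7.7e-06), and Hoxb3, a hindbrain gene of the head side of the cluster, fell by 0.54 (SE 0.14, adjusted p = 0.0027). Hoxc4 rose by 0.46 (SE 0.08, adjusted p = 7.3e-05). Hoxc9 rose by 0.46 (SE 0.17, adjusted p = 0.031) and Hoxb6 by 0.51 (SE 0.17, adjusted p = 0.013). In HoxD, Hoxd8 fell by 0.32 (SE 0.04) and Hoxd9 by 0.24 (SE 0.04), while Hoxd10 differed by -0.07 (SE 0.04, adjusted p = 0.12). Hoxc9 lost its adjusted p under 0.05 without X2 replicate 2, 3 or 4 or CCR7 replicate 1, and Hoxb6 without X2 replicate 4. Without CCR7 replicate 1 the log2 fold change of Hoxc9 was 0.29 (adjusted p = 0.149 by edgeR). Hoxd4 differed by -0.31 (adjusted p = 0.38) and by -0.73 and past the adjusted p without CCR7 replicate 1. Leaving out that library gave 3 higher and 5 lower HOX genes.

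The PDPN sort of Ccr7-transduced cells went with few HOX differences. Hoxb13 fell further, Hoxd8 and Hoxc6 rose, and no other tested HOX gene passed the adjusted p. Over all genes 3.27% passed both thresholds, 20.9% were higher and 20.7% lower at the adjusted p alone. Of 18 HOX genes 0 passed both by edgeR and 0 by DESeq2 (4 had an unadjusted p under 0.05), 2 were higher and 1 lower at the adjusted p, and the median log2 fold change was 0.01 against -0.00 for all genes. Hoxb13 fell by 0.48 (SE 0.10, adjusted p = 3.8e-04), with all 4 CCR7-PDPN libraries below all 4 CCR7 libraries. Hoxd8 rose by 0.18 (SE 0.04, adjusted p = 0.0022) and Hoxc6 by 0.24 (SE 0.08, adjusted p = 0.015), the latter not without CCR7-PDPN replicate 1. Hoxc9 (without CCR7 replicate 1) and Hoxd10 (without CCR7 replicate 1 or CCR7-PDPN replicate 4) also passed the adjusted p, at log2 fold changes of 0.43 and -0.09 to -0.11.

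Cells with both Ccr7 and PDPN were measured against X2 in both batches. In both they had lower Hoxb13, Hoxb3, Hoxd8, Hoxd9 and Hoxd10 and higher Hoxb6, Hoxc4 and Hoxc9 at the adjusted p. In batch 1, 9.45% of all genes passed both thresholds, 30.3% were higher and 30.6% lower at the adjusted p, and the HOX genes gave 1 call past both, 5 higher and 5 lower, with a median log2 fold change of 0.00 for HOX genes and for all genes. In batch 2 the values for all genes were 9.63%, 32.0% and 32.8%, and of the HOX genes 0 passed both by edgeR and 0 by DESeq2 (9 had an unadjusted p under 0.05), 4 were higher and 5 lower, with medians of -0.05 and -0.00. Hoxb13 fell by 1.07 in batch 1 (SE 0.09, adjusted p = 1.4e-09) and by 0.89 in batch 2 (SE 0.09, adjusted p = 1.9e-11). A test against a log2 fold change of 1 itself (glmTreat) did not call the batch 1 value. Hoxb6 rose by 0.78 and 0.73 (SE 0.16 and 0.13) and Hoxb3 fell by 0.59 and 0.54 (SE 0.14 and 0.11). Hoxc4 rose by 0.47 and 0.34 and Hoxc9 by 0.72 and 0.33, the latter lost in batch 2 by DESeq2 and without 6 of the 12 libraries in turn. Without X2 replicate 4 the batch 2 value of Hoxc9 was 0.20. Hoxd8, Hoxd9 and Hoxd10 fell by 0.14, 0.26 and 0.16 in batch 1 and by 0.25, 0.26 and 0.16 in batch 2. Hoxc6 and Hoxc10 rose in batch 1 (by 0.30 and 0.12) and differed by 0.16 (adjusted p = 0.093) and 0.03 (adjusted p = 0.57) in batch 2. Hoxc10 in batch 1 did not pass without X2 replicate 2, 3 or 4 or CCR7-PDPN replicate 3 or 4. Without CCR7-PDPN replicate 4 the batch 1 value of Hoxc10 was 0.07. In batch 1 the adjusted p was also passed by Hoxc8 without CCR7 replicate 1 or 4 (log2 fold change 0.63) and by Hoxd4 without X2 replicate 4 (-0.64).

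The difference between the batches in this repeated comparison was itself tested over all 24 libraries. Of 13690 genes, 0 (0.0%) differed at an adjusted p under 0.05 by edgeR and 0 by DESeq2, with or without the fold threshold (0.0%). An unadjusted p under 0.05 was reached by 293 genes, a smaller share than the 0.05 that chance alone would give. None of the 19 HOX genes tested was among these. Hoxb13 differed by -0.18 (SE 0.13, adjusted p = 0.9999), Hoxc6 by 0.14 (SE 0.11) and Hoxc10 by 0.09 (SE 0.06), each with the same adjusted p.

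X2 cells sorted for PDPN differed from X2 in genes of HoxB, HoxC and HoxD. Hoxc4, Hoxc5, Hoxc6, Hoxc8 and Hoxc10 rose, Hoxb5 rose, and Hoxd8, Hoxd10 and Hoxb3 fell. Over all genes 5.05% passed both thresholds, 28.2% were higher and 28.5% lower at the adjusted p alone. Of 18 HOX genes 0 passed both by edgeR and 0 by DESeq2 (10 had an unadjusted p under 0.05), 6 were higher and 3 lower, and the median log2 fold change was 0.21 against 0.00 for all genes. Hoxc5 rose by 0.70 (SE 0.13, adjusted p = 9.3e-06), Hoxc6 by 0.64 (SE 0.08, adjusted p = 3.8e-09) and Hoxc4 by 0.45 (SE 0.07, adjusted p = 6.9e-07). Hoxc10 rose by 0.27 (SE 0.04, adjusted p = 1.4e-07) and Hoxb5 by 0.71 (SE 0.20, adjusted p = 0.0023). Hoxc8 (log2 fold change 0.55, adjusted p = 0.033) was lost by DESeq2 and without X2 replicate 1 or 4 or X2-PDPN replicate 3 or 4. Hoxd10 fell by 0.37 (SE 0.03, adjusted p = 1.2e-12) and Hoxd8 by 0.19 (SE 0.03), whereas Hoxd9 between them differed by -0.08 (SE 0.04, adjusted p = 0.14; past 0.05 without X2 replicate 3). Hoxc9 differed by 0.32 (adjusted p = 0.061) and passed without X2 replicate 1 or 2 or X2-PDPN replicate 2 or 4. Hoxb3 fell by 0.25 (adjusted p = 0.04), which DESeq2 and 5 of the left-out libraries did not call. Hoxb13 differed by 0.01 (SE 0.08, adjusted p = 0.92).

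Hoxd12, which did not pass the filter on low counts, had 1, 3, 2 and 0 counts in X2 of batch 2 and 5, 13, 3 and 10 in X2-PDPN. Where leaving out a library let it through the filter, it passed by its counts in the groups where it is high, and nothing is read from its calls there. It had 2, 4, 11 and 5 counts in CCR7-PDPN of batch 2, and in batch 1 it had 2, 0, 0 and 3 in X2, 4, 2, 2 and 4 in CCR7 and 7, 6, 6 and 2 in CCR7-PDPN. The X2 libraries were at or below 3 counts in both batches, and the gene was named here after its values were seen.

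The genes around HoxC on chromosome 15 moved with it in X2-PDPN against X2. There the 113 other genes tested within 5 Mb of HoxC had a median log2 fold change of 0.24. Of these, 78 were higher and 8 lower at the adjusted p, and all 550 other genes tested on chromosome 15 had a median of 0.21. The medians of the other autosomes and the X chromosome lay between -0.20 and 0.13. Minus the 5 Mb median, the HoxC values became 0.46 (Hoxc5), 0.40 (Hoxc6), 0.31 (Hoxc8), 0.21 (Hoxc4), 0.08 (Hoxc9) and 0.03 (Hoxc10). The flanking genes Calcoco1, Atp5g2 and Atf7 on one side and Smug1, Cbx5 and Hnrnpa1 on the other rose by 0.49, 0.10, 0.44, 0.19, 0.51 and 0.12. The part of this chromosome-wide shift in the HoxC result was not tested further. Around HoxD and HoxB the 5 Mb medians were -0.03 and 0.07, and around HoxA -0.14. Near HoxA, Snx10 fell by 1.41 and Skap2 by 0.65 while Hoxa10 differed by -0.07 (SE 0.07, adjusted p = 0.43). In CCR7 against X2 and in CCR7-PDPN against X2 of batch 1 and 2, the 5 Mb medians around HoxC were -0.004, 0.01 and -0.01. The 6 HoxC genes tested had medians of 0.28, 0.39 and 0.19 in these comparisons.

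**Figure D4:**
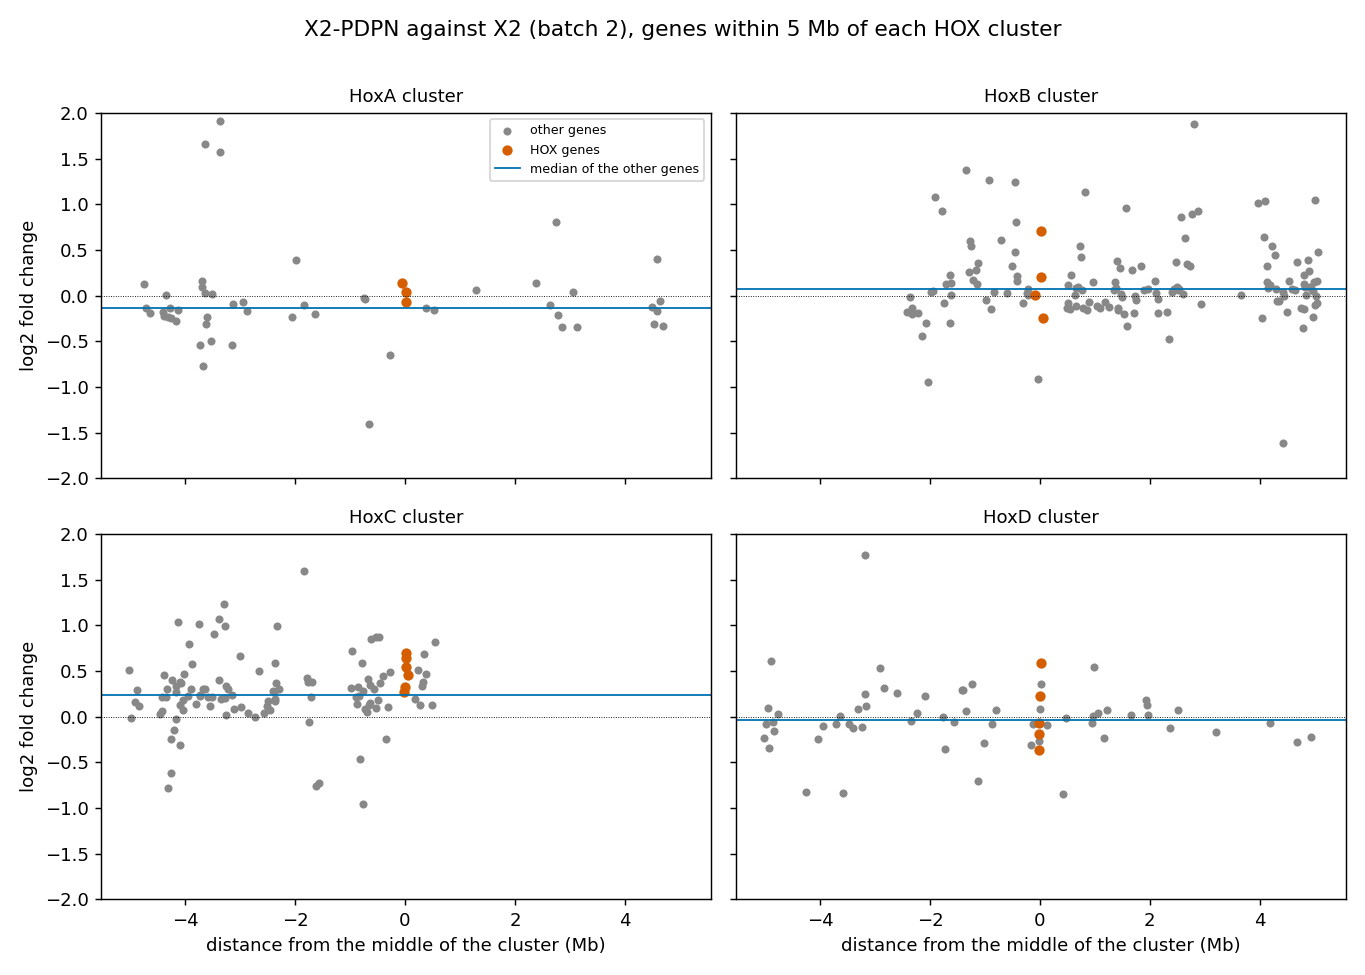
Log2 fold change in X2-PDPN against X2 of batch 2 against distance from the middle of each cluster, with HOX genes in orange, other genes in grey and the median of the other genes as a line. The line lies at 0.24 for HoxC and at -0.14, 0.07 and -0.03 for HoxA, HoxB and HoxD.

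Among PDPN-high cells, those with Ccr7 had lower Hoxb13, Hoxb3 and Hoxb5, lower Hoxc5, Hoxc6 and Hoxc10, lower Hoxd9, and higher Hoxb6 and Hoxd10 than those without. Over all genes 9.16% passed both thresholds, 31.2% were higher and 32.0% lower at the adjusted p alone. Of 18 HOX genes 0 passed both by edgeR and 0 by DESeq2 (10 had an unadjusted p under 0.05), 2 were higher and 7 lower, and the median log2 fold change was -0.21 against 0.00. Hoxb13 fell by 0.90 (SE 0.09, adjusted p = 1.2e-11), Hoxb5 by 0.80 (SE 0.20, adjusted p = 7.2e-04; by 1.09 and past both thresholds without CCR7-PDPN replicate 4) and Hoxc5 by 0.78 (SE 0.13, adjusted p = 1.4e-06). Hoxc6 fell by 0.48 (SE 0.08) and Hoxc10 by 0.24 (SE 0.04), beside a median of -0.18 for the 113 other genes within 5 Mb of HoxC. Hoxd9 fell by 0.18 (SE 0.04) and Hoxd10 rose by 0.20 (SE 0.03). Hoxb3 (log2 fold change -0.30) did not pass without CCR7-PDPN replicate 2 or 3 or X2-PDPN replicate 2, and Hoxd8 (-0.06) did without CCR7-PDPN replicate 4 or X2-PDPN replicate 3.

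Whether the PDPN difference itself was another in cells with and without Ccr7 was tested as a difference of differences, CCR7-PDPN minus CCR7 in batch 1 against X2-PDPN minus X2 in batch 2. Each of the 2 differences was taken within 1 batch, so that a shift shared by the libraries of a batch cancels. The comparison measured in both batches, CCR7-PDPN against X2, differed between them by 0.17 for Hoxc5, 0.11 for Hoxd8 and 0.01 for Hoxd10, and for 0 of 13690 genes at the adjusted p. The PDPN difference of a single Ccr7 background was not measured in both batches. The 2 references were also unlike, since the paper describes CCR7 as sorted PDPN-negative cells and names no such sort for X2. It reports a lower share of PDPN-positive cells in X2-PDPN than in CCR7-PDPN. Of 13690 genes, 5.44% passed both thresholds, 20.3% were higher and 20.5% lower at the adjusted p alone. Of 19 HOX genes 0 passed both by edgeR and 0 by DESeq2 (7 had an unadjusted p under 0.05), 2 were higher and 5 lower, with a median of -0.23 against -0.00 for all genes. Hoxc5 (-0.78, SE 0.20, adjusted p = 0.0018), Hoxc4 (-0.44, SE 0.10), Hoxc6 (-0.40, SE 0.11) and Hoxc10 (-0.23, SE 0.06) had smaller PDPN differences in the Ccr7 background, beside a median of -0.20 for the 118 other genes within 5 Mb of HoxC. Hoxb13 (-0.49, SE 0.13, adjusted p = 0.0025) fell with PDPN in the Ccr7 background and had a difference of 0.01 without it. Hoxd8 (0.37, SE 0.05, adjusted p = 5.9e-07) rose with PDPN in the Ccr7 background and fell without it, and Hoxd10 (0.28, SE 0.05, adjusted p = 6.3e-06) fell without Ccr7 and differed by -0.09 with it. Hoxb5 was also lower in this test without CCR7 replicate 3 (-0.84).

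**Figure D5:**
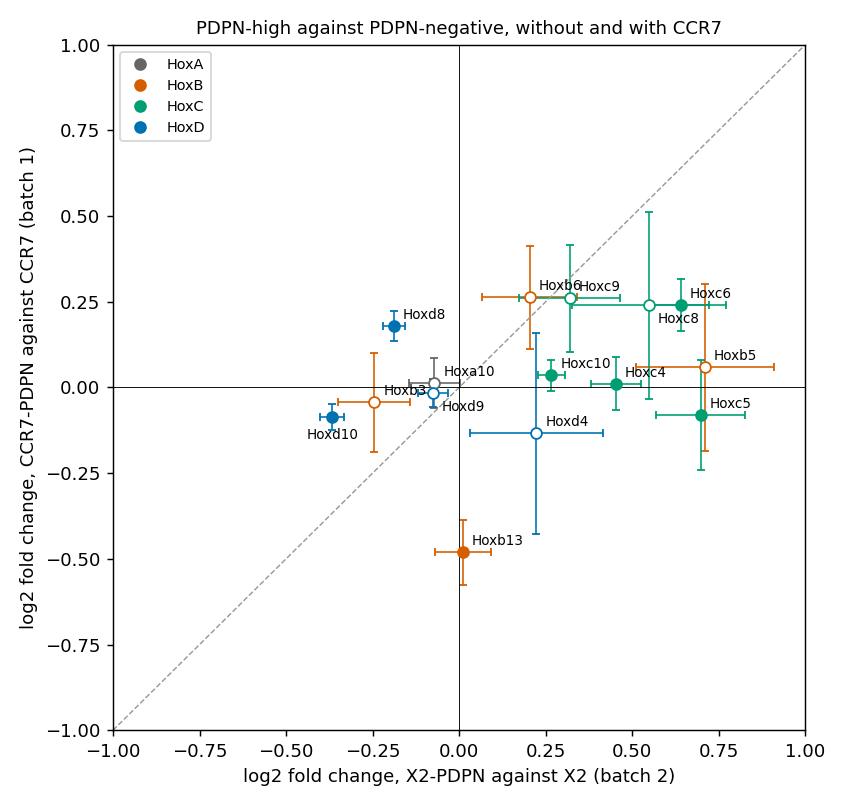
Log2 fold change (± SE) of the 15 HOX genes for PDPN-high against PDPN-negative cells, without Ccr7 on the x axis (batch 2) and with Ccr7 on the y axis (batch 1). Of the 2 references, the paper describes a PDPN-negative sort for CCR7 and not for X2. Filled points differ between the axes at an adjusted p under 0.05 and the dashed line marks equal values. Hoxb13 lies at 0.01 on the x axis and -0.48 on the y axis, and Hoxc4, Hoxc5, Hoxc6 and Hoxc10 lie to the right of the dashed line.

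Other transcripts of the clusters were scarce. The clusters held 46 further annotated genes, 29 with no read in batch 1, and 5 of them reached 1 TPM in a group. Of 16 noncoding HOX transcripts listed, 11 were matched by symbol and 1, Hoxd3os1, passed the filter, with group means from 4.80 to 6.26 TPM. It was higher at the adjusted p in CCR7-PDPN than in X2 (by 0.40) and X2-PDPN (by 0.31) of batch 2. In batch 1 the Hoxd3os1 means were 5.01 TPM in X2 and 6.06 TPM in CCR7-PDPN. Hotair, transcribed from HoxC next to Hoxc11 and Hoxc12, had means of 0.158, 0.221 and 0.260 TPM in X2, CCR7 and CCR7-PDPN of batch 1, and Hottip, at the silent end of HoxA, had 0. The 7 miRNA genes inside the clusters had at most 5 counts in a batch 1 library, which the polyadenylated libraries are not made to measure. Of 9 ParaHox and HOX-linked homeobox genes (Cdx, Gsx, Pdx1, Evx and Mnx1) none passed the filter, and the highest, Cdx1, had 0.428 TPM in X2 of batch 1.

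Of 9 TALE cofactors, the partners of HOX proteins, 8 were tested, and Pbx2 was highest with 64.4 to 68.6 TPM. In the order in which the comparisons were given above (CCR7 against X2, CCR7-PDPN against CCR7, CCR7-PDPN against X2 in batch 1 and 2, X2-PDPN against X2, CCR7-PDPN against X2-PDPN), 4, 2, 3, 3, 3 and 2 were higher and 0, 1, 2, 2, 0 and 2 lower at the adjusted p. Over all genes, in the same order, 24%, 20.9%, 30.3%, 32.0%, 28.2% and 31.2% were higher and 25.2%, 20.7%, 30.6%, 32.8%, 28.5% and 32.0% lower, with medians of -0.00 to 0.00 on the log2 scale. The median log2 fold change of the cofactors tested lay between -0.03 and 0.17. Pbx4, under 1 TPM in every group, rose by 1.35 in CCR7 and 1.29 in CCR7-PDPN against X2 of batch 1 and by 1.08 in CCR7-PDPN against X2-PDPN, but differed by 0.40 (SE 0.41, adjusted p = 0.39) in CCR7-PDPN against X2 of batch 2, with 41 against 32 counts over 4 libraries. Meis1 had 2.55 TPM in X2 and 3.79 in CCR7 of batch 1.

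Chromatin regulators of HOX genes were expressed throughout. Of 13 PRC2 genes, the complex that methylates H3K27, 12 were matched and tested, 11 reached 1 TPM and Rbbp7 was highest with 257 to 282 TPM. In the same order 4, 5, 6, 5, 3 and 6 were higher and 4, 0, 1, 2, 4 and 1 lower, and Epop, an accessory subunit under 1 TPM, passed both thresholds in CCR7 against X2 (fell by 1.52, SE 0.40). The PRC2 medians lay between -0.02 and 0.07. Of 19 PRC1 genes all were tested, 6, 7, 8, 7, 8 and 7 were higher, 3, 7, 7, 7, 6 and 6 lower, none passed both thresholds, and Bmi1 was highest with 163 to 203 TPM. The PRC1 medians lay between -0.06 and 0.04. Of 14 MLL, trithorax and H3K27 demethylase genes, led by Wdr5 with 204 to 265 TPM, 5, 1, 3, 6, 9 and 4 were higher and 1, 2, 2, 4, 4 and 7 lower, with medians from -0.09 to 0.19. These counts stand beside 20.9% to 32.0% of all genes higher and 20.7% to 32.8% lower in the same comparisons, and nothing particular to the regulators is read from them. Kmt2d, which lies on chromosome 15 like HoxC, rose by 1.03 (SE 0.09) in X2-PDPN against X2, as did Kmt2a by 0.96 (SE 0.12). Mean Kmt2d levels were 23.1 TPM (X2), 35.2 (CCR7) and 30.6 (CCR7-PDPN) in batch 1. In batch 2 they were 21.5 (X2), 44.2 (X2-PDPN) and 29.0 (CCR7-PDPN). Mean Kmt2a levels in batch 2 were 60.4 TPM (X2-PDPN), 30.9 (X2) and 29.6 (CCR7-PDPN), so that X2-PDPN stood apart and CCR7-PDPN was lower than X2-PDPN by a log2 fold change of -1.0 (SE 0.12) but differed from X2 by -0.04 (adjusted p = 0.80). Their parts in the HOX differences were not tested.

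Of 16 retinoic acid genes 9 were tested in batch 1 and 8 in batch 2, and Rxrb was highest with 114 to 129 TPM. In the same order 1, 3, 3, 3, 3 and 2 were higher and 3, 2, 4, 5, 1 and 4 lower, with medians from -0.22 to 0.05, beside the same 20.9% to 32.0% of all genes higher and 20.7% to 32.8% lower. Crabp2, which carries retinoic acid to its receptors, fell by 1.32 (SE 0.29) and 1.47 (SE 0.30) in CCR7-PDPN against X2 of batch 1 and 2, from 2.07 to 0.809 and from 2.45 to 0.847 TPM. Hoxb1, a direct retinoic acid target of the head side, had 1 count in all of batch 1.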

How the data were processed

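RNA-seq libraries were prepared from polyadenylated RNA with a stranded TruSeq kit and sequenced as single 75-base reads on a NextSeq 550, per the labels and the study's methods. The authors deposited 1 table of raw read counts per Ensembl gene for each batch, and the submitters' processing notes name GRCm38 and mm10. The name and columns of the batch 1 table are those of featureCounts. The aligner, the strand setting of the counting and the counter of batch 2 are not given in the sources used here. The batch 2 table was shorter and paired identifiers with symbols.

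The HOX members and all gene lists were chosen with earlier results of these data known. HOX genes with a mean of 1 TPM in a group are described by library. The highest gene of each other list, genes of those lists past both thresholds and flanking genes, taken from the 3 nearest coding genes on each side of a cluster, are named with group means or log2 fold changes. TPM was computed within each table from the counts and exonic lengths. Tests used edgeR 4.0.16 in R 4.3.3 (TMM, filterByExpr, robust quasi-likelihood fit) on the 3 groups of a batch, with 24-library fits over 13690 shared genes for the differences of differences. The tests were tested on simulated data. The alternatives were DESeq2 1.42.0, other scaling, filters, thresholds, replicate blocks, fits of only the 2 groups compared and left-out libraries. Counts at the adjusted p alone were added after seeing the data. The lists named 5 noncoding symbols and Ezhip without a match. Replicate numbers were not treated as pairs. Between libraries of the same number, deviations from the group means correlated by -0.12 to 0.05 in batch 1 and by -0.04 to 0.11 in batch 2. In batch 2 every replicate 1 and 3 correlated best with a library of its own number among the other groups, and in batch 1 no library did. Weak sharing in batch 2 is therefore not excluded. Intervals were not given for counts, whose depth is in the report, and a count of 0 covers counting error only. No column of the tables was without a sample. Results for 1 HOX gene and 1 gene of another list are not reported here, although both were tested and are included in the counts.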

Additional observations from a re-analysis of the deposited data

Results flagged for a closer look

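Single libraries lay far from the other 3 of their group in 6 of 90 sets of a gene and a group, where chance alone gives about 1 in 20. Hoxb6 was at 7.00 TPM in CCR7-PDPN replicate 3 of batch 2 and at 4.26 in X2-PDPN replicate 2. Hoxc9 was at 4.56 TPM in CCR7 replicate 1, the library that stood apart over all genes. Without it, the log2 fold change of Hoxc9 in CCR7 against X2 was 0.29 in place of 0.46 and not past the adjusted p. Hoxc10 was at 83.7 TPM in X2 replicate 3 of batch 1, Hoxd4 at 1.59 in X2-PDPN replicate 1 and Hoxd9 at 108.5 in CCR7 replicate 2.

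The PDPN difference of 7 HOX genes was another with Ccr7 than without it by the edgeR test of the difference of differences, which is 36.8% of the 19 tested beside 40.8% of all genes. It sets a difference within batch 1 against one within batch 2. The comparison measured in both batches (CCR7-PDPN against X2) differed between them for 0 of 13690 genes at the adjusted p. CCR7 was sequenced in batch 1 only and X2-PDPN in batch 2 only, so that result does not cover either PDPN difference. The log2 values, with Ccr7 minus without, were -0.49 for Hoxb13, -0.44 for Hoxc4, -0.78 for Hoxc5, -0.40 for Hoxc6, -0.23 for Hoxc10, 0.37 for Hoxd8 and 0.28 for Hoxd10. Each HoxC value stands beside a median of -0.20 for the other genes within 5 Mb.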

How the results depend on the processing

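Of the 53 log2 fold changes of the 15 HOX genes that passed the adjusted p, 0 reversed under any alternative run and 8 lost it when 1 library was left out. In fits of only the 2 groups compared, 1 of them lost the adjusted p and 1 result that had not passed gained it. Some that did not pass changed sign without 1 library, such as Hoxb5 in CCR7 against X2 (-0.37 to 0.14) and Hoxd4 in CCR7-PDPN against CCR7 (-0.32 to 0.29). Without the fold threshold, the HOX calls were 8 (CCR7 against X2), 3 (CCR7-PDPN against CCR7), 10 and 9 (CCR7-PDPN against X2, batch 1 and 2), 9 (X2-PDPN against X2), 9 (CCR7-PDPN against X2-PDPN) and 7 (difference of differences), beside 49.3%, 41.6%, 60.9%, 64.8%, 56.8%, 63.2% and 40.8% of all genes, against which the HOX shares were 44.4%, 16.7%, 55.6%, 50%, 50%, 50% and 36.8%. Without a filter on low counts they were 2 and 1 (CCR7-PDPN against X2, batch 1 and 2) and 1 (X2-PDPN against X2), from the addition of Hoxd12, whose X2 libraries held 0 to 3 counts. The test against a fold of 2 (glmTreat) left 0 of 1 in CCR7-PDPN against X2 of batch 1, and DESeq2 gave 2 higher HOX genes in place of 4 in batch 2.

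Leaving out each library in turn gave 0 to 1, 0 to 0, 1 to 2, 0 to 1, 0 to 1 and 0 to 1 calls in the 6 comparisons, in the order of the report. The call added in CCR7-PDPN against X2 of batch 2 and in X2-PDPN against X2 was Hoxd12, which passed the filter by its counts in the groups where it is high, so nothing is read from it. The counts of higher genes there include it. Higher genes at the adjusted p numbered 1 to 4, 1 to 3, 4 to 6, 2 to 5, 6 to 8 and 2 to 3, and lower genes 4 to 5, 1 to 2, 5 to 6, 5 to 5, 2 to 4 and 6 to 8. CCR7 against X2 had 2 higher genes without X2 replicate 3 and 1 without X2 replicate 4, and CCR7-PDPN against X2 of batch 2 had 2 without X2 replicate 4. CCR7-PDPN against CCR7 had 1 higher gene without CCR7-PDPN replicate 1, and 2 lower genes without CCR7 replicate 1 or CCR7-PDPN replicate 4. The difference of differences kept 2 higher genes and had 5 to 6 lower. The cause of these changes was not tested.

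With a replicate block the calls past both thresholds numbered 0, 0, 1, 0, 0 and 0, and X2-PDPN against X2 had 7 higher genes at the adjusted p in place of 6. No pairing by these numbers is given beyond the label, although some libraries of the same number in batch 2 were weakly alike. The number of HOX genes at 1 TPM was 15, and 17 at 0.5 TPM, 13 at 2 TPM and 16 or 17 over exonic length not shared with other genes. Genes under 1 TPM rest on few counts, and all p-values rest on technical replicates of 1 population.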
